A study of Mus musculus with 6 samples.

Results

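The regions described here were listed in both libraries that carried a hairpin against Plcg1 after 24 h of erythropoietin-induced differentiation and in neither library taken at 0 h. They were selected on peak presence alone: the 4 peak lists were merged by an overlap of 1 bp or more, and a merged region was kept when it held a peak of both 24 h lists and of no 0 h list. This gave 362 of 10085 merged regions. All cells were of the I/11 line, a murine erythroblast line from p53-deficient mouse fetal liver of day E12.5, and all had been infected with lentivirus and selected with puromycin. The groups were short hairpin RNA 133 or 14 against Plcg1, each at 0 h (72 h after infection) and at 24 h (96 h after infection), the latter in medium with 10 U/ml erythropoietin and holo-transferrin in place of the expansion medium with 1 U/ml erythropoietin, stem cell factor and dexamethasone. Each group was 1 library. A scrambled hairpin at both times completed the series and was not analysed here.

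Methyl-CpG immunoprecipitation captures sonicated DNA with the methyl-CpG binding domain of MBD2 fused to an antibody tail, and the fraction released at high salt is dense in methylated CpG. Methylation of CpG-dense DNA is best known at promoters and CpG islands, many of which belong to developmental regulators that Polycomb proteins hold silent in blood cells. Plcg1 encodes phospholipase C gamma 1, which cleaves a membrane phospholipid into diacylglycerol and inositol trisphosphate downstream of receptors such as that of erythropoietin. A peak here is a region that the authors listed for a library. It has no height, and whether it stands for more or less methylated DNA than in the control cells is not stated in the labels. Peak positions do not measure expression, so neither the cell type nor the knockdown could be checked with them. Plcg1 itself (chr2:160731310-160775760) held no member, and the nearest member lay 2913 kb away.

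Hairpin 133 had 3900 listed peaks at 0 h and 2960 at 24 h. Hairpin 14 had 3437 and then 2666. The members took up 12.2% of the 24 h list of hairpin 133 (exact 95% interval 11.1 to 13.5%) and 13.6% of that of hairpin 14 (12.3 to 14.9%). Of 745 regions that held a peak of both 24 h lists, the members were 48.6%, while 238 held a peak of all 4 lists and 145 of exactly 1 of the 0 h lists. At 0 h the regions defined in the mirror-image way, with both hairpins and no 24 h peak, numbered 809. They were 67.1% of the 1206 regions that held a peak of both 0 h lists. These counts follow from the rule and were not tested. With 1 library per group, the tests below compare sets of regions and not conditions.

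Sequence was available only for promoter windows, so the stretches below do not show the CpG density of members in general. The 8 stretches below are those with the most CpG among promoter windows of named genes, predicted genes left out, that a member covered by at least 140 bases (RefSeq, mm10 coordinates, 250 bases before to 50 after a transcript start). They are written 5′ to 3′ on the strand of the gene, with each CpG in capitals.
Bhlhe41 (chr6:145865415-145865565, minus strand): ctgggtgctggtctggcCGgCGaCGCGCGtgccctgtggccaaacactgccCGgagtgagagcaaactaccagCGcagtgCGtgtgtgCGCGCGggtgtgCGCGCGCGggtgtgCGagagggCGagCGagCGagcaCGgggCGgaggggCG
Cacna2d2 (chr9:107399787-107399929, plus strand): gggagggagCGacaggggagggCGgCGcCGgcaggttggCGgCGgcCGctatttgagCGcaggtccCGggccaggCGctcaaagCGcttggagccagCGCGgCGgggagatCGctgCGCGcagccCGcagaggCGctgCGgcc
Wipf1 (chr2:73529530-73529680, minus strand): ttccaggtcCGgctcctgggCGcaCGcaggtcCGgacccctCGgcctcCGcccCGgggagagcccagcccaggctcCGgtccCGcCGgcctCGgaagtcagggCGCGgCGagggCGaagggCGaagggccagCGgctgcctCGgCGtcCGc
Sct (chr7:141279144-141279294, minus strand): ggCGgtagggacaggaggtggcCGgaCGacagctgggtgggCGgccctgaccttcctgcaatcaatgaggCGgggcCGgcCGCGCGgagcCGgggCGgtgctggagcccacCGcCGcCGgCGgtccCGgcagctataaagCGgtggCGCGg
Col13a1 (chr10:61979111-61979261, minus strand): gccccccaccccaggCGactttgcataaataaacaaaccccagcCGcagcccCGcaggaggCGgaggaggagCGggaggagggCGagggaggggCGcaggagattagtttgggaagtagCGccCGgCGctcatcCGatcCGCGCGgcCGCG
Dock3 (chr9:107231945-107232095, minus strand): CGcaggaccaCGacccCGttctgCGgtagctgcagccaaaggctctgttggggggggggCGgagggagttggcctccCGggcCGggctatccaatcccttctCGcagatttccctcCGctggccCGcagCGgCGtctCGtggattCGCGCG
Rin3 (chr12:102282891-102283041, plus strand): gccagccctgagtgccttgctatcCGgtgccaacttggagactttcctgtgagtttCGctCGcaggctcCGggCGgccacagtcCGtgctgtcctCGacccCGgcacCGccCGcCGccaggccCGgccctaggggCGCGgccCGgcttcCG
Adra2b (chr2:127362929-127363079, plus strand): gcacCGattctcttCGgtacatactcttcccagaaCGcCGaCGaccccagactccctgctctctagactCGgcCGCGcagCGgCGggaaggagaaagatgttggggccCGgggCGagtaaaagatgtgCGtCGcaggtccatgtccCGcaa

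Bhlhe41, the gene of a circadian bHLH repressor, had 22 CpG from 145 bases before its start to 5 after it. Cacna2d2, the gene of an auxiliary calcium channel subunit, had 20 in 143 bases, and Wipf1, the gene of a partner of the Wiskott-Aldrich syndrome protein in actin assembly, had 20. Sct, the gene of the hormone secretin, followed with 19. Col13a1 (a transmembrane collagen), Dock3 (an activator of Rac) and Rin3 (an activator of Rab5) had 16 each, and Adra2b, an adrenergic receptor gene, had 15. In both 24 h lists each of these 8 peaks had the same start and end. No 0 h peak lay within 10 kb of Cacna2d2, Sct, Col13a1, Dock3 or Rin3. Wipf1 and Bhlhe41 had 1 such peak with hairpin 133 and Adra2b 1 with hairpin 14.

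Pax6 and Lhx6, homeobox genes of eye and forebrain development, had fewer CpG under their members, 11 each. They are shown beside the others because the members touched many homeobox genes, and were chosen after their values were seen.
Lhx6 (chr2:36105489-36105639, minus strand): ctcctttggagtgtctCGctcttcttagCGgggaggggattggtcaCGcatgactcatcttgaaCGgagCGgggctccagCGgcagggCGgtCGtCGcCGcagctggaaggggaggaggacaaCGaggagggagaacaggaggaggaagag
Pax6 (chr2:105682215-105682365, plus strand): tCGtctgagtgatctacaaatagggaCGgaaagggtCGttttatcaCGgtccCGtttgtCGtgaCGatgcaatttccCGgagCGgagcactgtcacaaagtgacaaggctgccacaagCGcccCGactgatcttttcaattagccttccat

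The Lhx6 stretch had 62.9% G and C and the Pax6 stretch 51.0%, and Pax6 had a CpG observed to expected ratio of 1.12 against 0.824 for Lhx6. A 0 h peak of hairpin 14 lay 703 bp from the member at Pax6. The nearest to the member at Lhx6 was one of hairpin 133 at 3.36 kb. The other windows of named genes covered by at least 140 bases were those of Ltbp2 (11 CpG), Nxph2 (a neurexin ligand, 8), Prkar1b (a regulatory subunit of protein kinase A, 8), Trpc4 (a cation channel, 7) and Ggt1 (gamma-glutamyltransferase, 6). Over all 15 such windows the number of CpG covered went from 6 to 22 with a median of 15.

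In all, members touched 33 promoter windows, 9 of them of predicted genes. These windows held a median of 24 CpG in 300 bases (quartiles 16 to 30), against 17 for the 44 windows touched by regions of both hairpins at 0 h only and 13 over all 21263 windows of protein-coding genes. A window counted as CpG-rich at an observed to expected ratio of 0.6 or more and 50% or more G and C. By that measure 25 of 33 windows were CpG-rich, or 75.8%, against 22 of 44 (50%) for regions of both hairpins at 0 h only (Fisher's exact test, adjusted p = 0.0402) and 52.2% of 184 windows for regions of 1 list at 24 h only (adjusted p = 0.0174). The windows of regions in all 4 lists, at 63.8%, did not differ past the threshold (Fisher's exact test, adjusted p = 0.350, difference 11.9 percentage points). Some members touched more than 1 window, and the 33 windows came from 29 members. With 1 window per region, the one it overlapped most, the count was 21 of 29 (72.4%), against 20 of 40 for the 0 h regions and 52.1% for those of 1 list at 24 h. Neither difference then passed the threshold (Fisher's exact test, adjusted p = 0.0944 and 0.0553), a setting added after the data had been seen. With only identical coordinates in both sets the difference from the 0 h regions was 20.8 points and no longer past the threshold (Fisher's exact test, adjusted p = 0.123).

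3 short motifs were searched on both strands of the 33 windows. The GC box GGGCGG, bound by Sp1, stood in 18 of them (54.5%), against 46.2% of windows of all protein-coding genes and 72.7% of the windows of the 0 h regions. Its share was 61.7% for regions of all 4 lists and 59.8% for those of 1 list at 24 h. For regions listed at both times but not in all 4 lists it was 67.1%. The E-box CACGTG, with a CpG at its centre, stood in 4 (12.1%), against 7.84% of windows of all protein-coding genes, 11.4% for the 0 h regions and 17.0% for regions of all 4 lists. Its share was 9.24% for regions of 1 list at 24 h and 1.32% for those listed at both times but not in all 4 lists. AGATAA, a form of the site bound by Gata factors, stood in 0, against 9.65% of windows of all protein-coding genes, 2.27% for the 0 h regions and 2.13% for regions of all 4 lists. Its share was 5.4% for regions of 1 list at 24 h. It also stood in 0 of the 76 windows of regions listed at both times but not in all 4 lists. In 0 of the 33 windows did matches of different motifs overlap. A match is a description of the letters in the window and no evidence of binding.

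11 protein-coding genes held 2 members in their body or within 1 kb of it, and no gene held more. Bcorl1, a corepressor gene of a Polycomb complex, held both members of the X chromosome, at chrX:48343615-48343765 and chrX:48343812-48343962, 2332 and 2529 bp downstream of its listed start in a body of 66.7 kb. The 0 h lists had 0 peaks in Bcorl1 or within 10 kb of it, and the nearest was 75.0 kb away. Utf1, a chromatin factor of embryonic stem cells, is only 1.26 kb long and held members at chr7:139943882-139944032 and chr7:139944797-139944947. Within 10 kb it had no 0 h peak, and 2 peaks of hairpin 133 and 3 of hairpin 14 at 24 h. Sh2b2, an adaptor of cytokine and insulin receptors, had 2 and 3 peaks at 24 h and likewise none at 0 h. Lpcat2, a lipid-modifying acyltransferase, had 2 and 2 at 24 h and none at 0 h. By the rule, a gene with 2 members had at least 2 listed peaks with each hairpin at 24 h. These 4 genes were grouped for having no 0 h peak listed within 10 kb, and a change with time was not tested.

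The other 7 genes with a pair of members also had 0 h peaks close by or elsewhere in the gene. Cadm1, a cell adhesion gene of 332 kb, had members at chr9:47531054-47531204 and chr9:47531744-47531894 inside 1 end of the gene, and a 0 h peak of hairpin 133 lay 35 bp from the first of these. It had 2 peaks with each hairpin at 0 h and 4 and 5 at 24 h. Ltbp2 had members at chr12:84875955-84876105 and chr12:84876584-84876734, with a 0 h peak of hairpin 14 lying 80 bp from the latter. Necab2, a neuronal calcium-binding protein gene, had its pair at chr8:119447146-119447296 and chr8:119447693-119447843 and a 0 h peak 6.65 kb away. Syt1, the synaptic vesicle calcium sensor, and Phactr2, a phosphatase and actin regulator, held theirs over 40 kb apart within long bodies of 513 and 267 kb. Flrt1 lies inside Macrod1, so the pair at chr19:7144234-7144384 and chr19:7166156-7166306 counted for both. The members formed 352 loci when those within 10 kb of each other were joined, and 10 of these loci had 2 members and none had more.

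Members lay near gene ends more often than the regions of both hairpins at 0 h only, and less often than the regions of all 4 lists. Of 362 members 94 had their centre at most 1 kb from an end of a coding gene, 26.0% (21.5 to 30.8%), against 14.6% of the 0 h regions (Fisher's exact test, odds ratio 2.05, adjusted p = 1.89e-05) and 13.2% of the regions of 1 list at 24 h only (odds ratio 2.31, adjusted p = 7.39e-09). The regions of all 4 lists were higher, at 45.1% (Fisher's exact test, odds ratio 0.426, adjusted p = 6.82e-06). For the regions of 1 list at 0 h only the share was 7.83%, below the 13.2% of 1 list at 24 h only. A higher share at 24 h than at 0 h was thus not particular to members, and this was not tested. Counted from starts in the promoter table, the share within 1 kb was 22.9% for members and 13.8% for the 0 h regions, a count added after the data had been seen.

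The 687 regions listed at both times but not in all 4 lists were compared with the members as well, in a test likewise added after the data had been seen. Their share near gene ends was 28.1%, over 10 kb from any gene 11.4% and in promoter windows 10.6%, and 71.1% of their 76 windows were CpG-rich. Their gene body share was 61.7%, 6.79 percentage points below that of members. None of these 5 shares differed from that of members past the threshold (Fisher's exact test, adjusted p = 0.152 for gene bodies and 0.670 or more for the others), and 1 had an unadjusted p under 0.05.

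**Figure D1:**
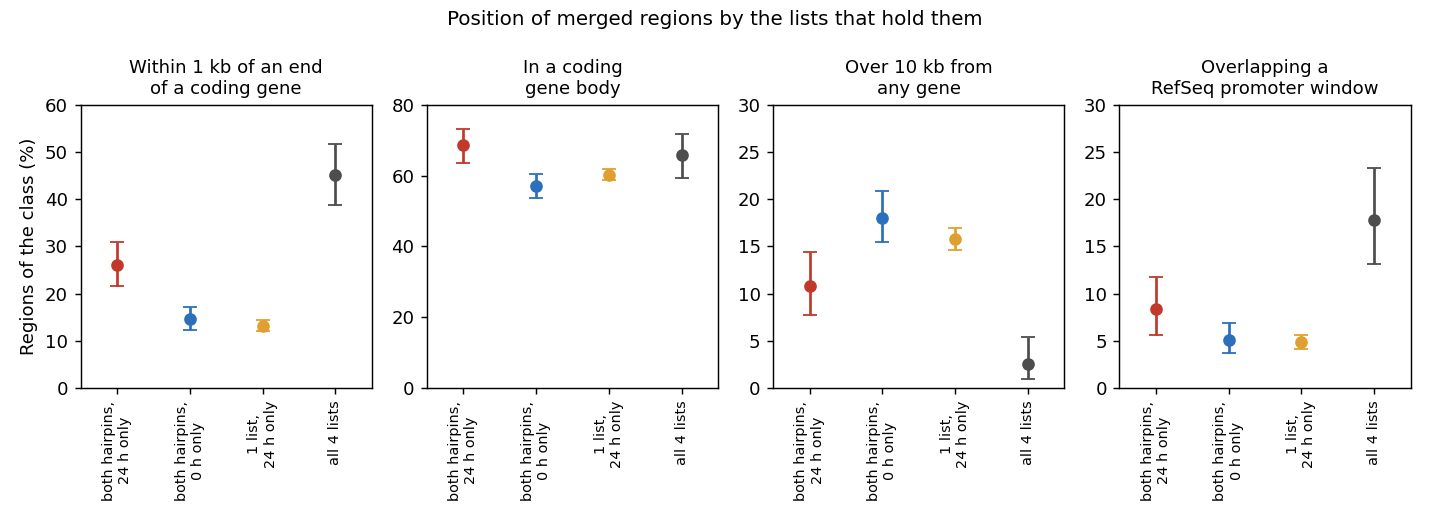
Share of merged regions (%) at each kind of position, for regions of both hairpins at 24 h only, both hairpins at 0 h only, 1 list at 24 h only and all 4 lists. Points are shares and bars exact 95% intervals for counting error. Members sit between the other 24 h or 0 h regions and the regions of all 4 lists at gene ends and promoter windows.

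Members were also in protein-coding gene bodies in 68.5% of cases, against 57.1% of the 0 h regions (Fisher's exact test, adjusted p = 0.000542) and 60.2% of the regions of 1 list at 24 h (adjusted p = 0.00379). The regions of all 4 lists were in bodies in 65.8%, which did not differ from members past the threshold (Fisher's exact test, adjusted p = 0.533, difference 2.69 percentage points). Over 10 kb from any gene lay 39 members (10.8%, 7.77 to 14.4%), fewer than the 18.05% of the 0 h regions (Fisher's exact test, adjusted p = 0.00252) and more than the 2.53% of the regions of all 4 lists (adjusted p = 0.000297). For regions of 1 list at 24 h only that share was 15.7% (Fisher's exact test, adjusted p = 0.0161). Promoter windows were overlapped by 29 of 349 members off chromosome 18, or 8.31%, against 5.10% of the 0 h regions (Fisher's exact test, adjusted p = 0.0492) and 17.8% of the regions of all 4 lists (adjusted p = 0.00157). The share was 4.82% for regions of 1 list at 24 h only (Fisher's exact test, adjusted p = 0.0114). It was 2.39% for those of 1 list at 0 h only, which were not tested. The difference in promoter windows from the 0 h regions passed only barely, and fell short of the threshold with identical coordinates only, with 1 region per locus, without chromosome 10 and with regions left out that had a peak of the other time within 1 kb (Fisher's exact test, adjusted p = 0.0645 to 0.181).

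The median distance from a member to the nearest listed start was 10970 bp, against 18180 bp for the 0 h regions, 19440 bp for those of 1 list at 24 h and 2226 bp for those of all 4 lists. For regions listed at both times but not in all 4 lists it was 10990 bp, close to that of members. Of 94 members within 2 kb of a listed start, 64 lay downstream of it, 68.1% (57.7 to 77.3%). In the 0 h regions the downstream share was 63.2%, within that interval. Among 92 members at gene ends off chromosome 18, the end was the 5′ end for 52, the 3′ end for 8 and both for 3, and the promoter table gave no strand for 29. With ends of no given strand counted in, the 5′ share was 56.5% for members and 64.35% for the 0 h regions. It was 60.3% for regions of 1 list at 24 h and 72.9% for those of all 4 lists, and was not tested.

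**Figure D2:**
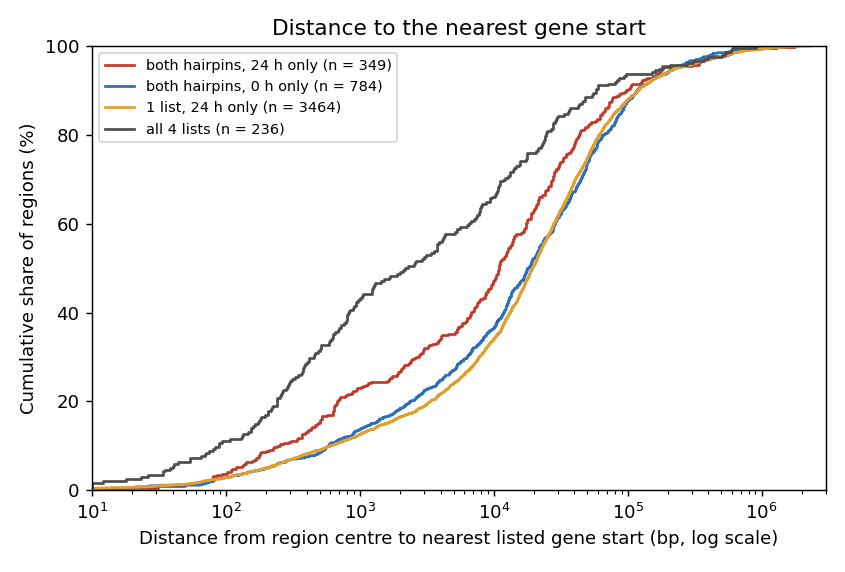
Cumulative share of regions (%) against the distance from the region's centre to the nearest start in the RefSeq promoter table (bp, log scale), for the same 4 classes, without chromosome 18. The line of members runs between that of regions in all 4 lists and those of the other classes, with medians of 10970, 2226, 18180 and 19440 bp for members, all 4 lists, 0 h and 1 list.

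Members had the same start and end in both 24 h lists in 318 of 362 cases, 87.8% (84.0 to 91.0%). That exceeded the 70.8% of the regions of both hairpins at 0 h only, counted between the 0 h lists (Fisher's exact test, odds ratio 2.98, adjusted p = 1.24e-09), and was below the 98.3% of regions in all 4 lists (adjusted p = 4.40e-06). The other 44 members were offset by 1 to 146 bp, and 20 of them by at most 10 bp. Whether the 24 h lists were called jointly or against the same control library is not stated in the labels, and what part of the identity this gives was not tested.

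Identical and offset members lay at different positions, a comparison made after the identity had been seen. Of the identical members 92 (28.9%) were within 1 kb of a gene end and of the offset members 2 (4.55%, 0.555 to 15.5%; Fisher's exact test, adjusted p = 0.000890 over 5 tests). All 33 promoter windows were touched by identical members, and 0 of 41 offset members with windows on their chromosome touched one, which allows a share of up to 7.32% (3 counts of the total) or, by the exact 95% interval, 8.60%. A 0 h peak lay within 1 kb of 45 identical members (14.2%) and of 0 offset members. The rule used 0 h peaks to choose members, so this is a description, although it was among the 5 tests adjusted together. Over 10 kb from any gene lay 9.12% of identical and 22.7% of offset members (Fisher's exact test, adjusted p = 0.0261), and the shares in coding gene bodies, 70.1 and 56.8%, did not differ past the threshold (adjusted p = 0.0844). Offset members touched 34 coding genes within 10 kb, of which Cdk6 (a cell cycle kinase), Ebf1 (a B-cell factor), Foxf2 (a forkhead factor) and Jarid2 (a Polycomb cofactor) were in the gene lists, and 0 of the Hox or other homeobox genes. Identical members touched 325 coding genes, of which 8 were Hox genes and 18 other homeobox genes. With so few genes at offset members, this difference was not tested.

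Listed at 24 h only does not mean far from a 0 h peak. A 0 h peak of either hairpin lay within 1 kb of 45 members (12.4%) and within 10 kb of 92 (25.4%), and the median distance was 45.2 kb. The regions of both hairpins at 0 h only had a 24 h peak within 1 kb in 50 of 809 cases (6.18%) and a median of 89.2 kb. Those values depend on the number of peaks in the lists of the other time and on the rule, and were not tested. Of the 45 members with a 0 h peak within 1 kb, 20 lay at a gene end (44.4%), and of the other 317 it was 74 (23.3%).

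Just inside the threshold, members missed a 0 h peak by a few bases. In Arhgap26, the gene of a GTPase-activating protein, the member at chr18:38993368-38993518 was 3 bp from a peak of hairpin 14. In Igdcc4, an immunoglobulin superfamily gene, chr9:65101748-65101898 was 19 bp from a peak of hairpin 14, and at Spryd7 chr14:61557493-61557643 was 27 bp from one of hairpin 133. Just outside it, 3 regions of all 4 lists had 0 h and 24 h peaks overlapping by 19, 24 and 25 bp, at chr3:104788628-104788910, chr7:144939572-144939849 in Ccnd1 (cyclin D1) and chr17:55932077-55932353. In 14 of the 383 regions excluded for a 0 h peak, the overlap was under 76 bp.

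**Figure D3:**
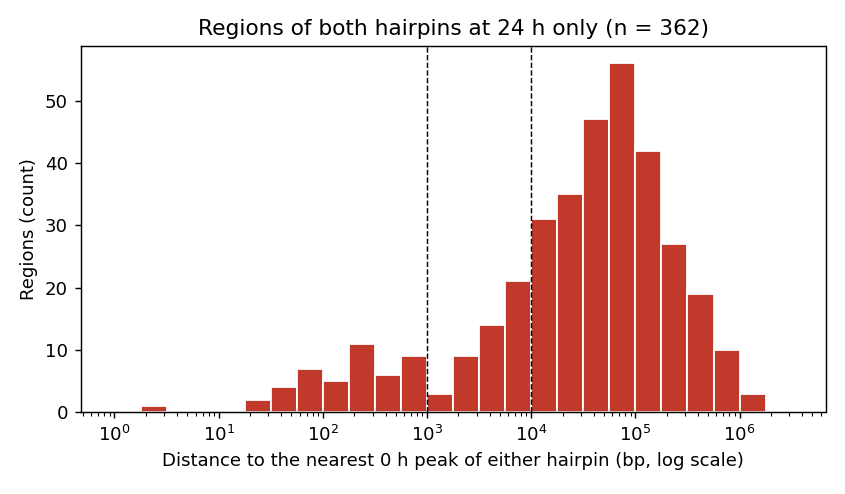
Number of members by distance to the nearest 0 h peak of either hairpin (bp, log scale), with dashed lines at 1 and 10 kb. Of the 362 members 45 lie left of the first line and 92 left of the second.

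Members lay in the body or within 10 kb of 358 of 21900 protein-coding genes, 1.63%, which is the background for the gene lists below. Of these genes 168 (46.9%) also had a 0 h peak in the same window and 190 had none. These shares, and that of all genes, were not adjusted for gene length, neighbouring genes can count the same member, and the lists were not tested.

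Homeobox and paired factors outside the Hox clusters, which set regional identity in the embryo, had a member at 18 of 131 genes (13.7%, against 1.63%), from 19 distinct members. Regions of both hairpins at 0 h only touched 17 of them, beside 2.82% of all coding genes, and regions of all 4 lists 20, beside 1.28%. For 6 of the 18, Alx4, Evx1, Nkx2-2, Otx2, Pou3f1 and Vax1, no 0 h peak was listed within 10 kb, and of these Nkx2-2, Otx2, Pou3f1 and Vax1 are named after their values were seen. Nkx2-2, a ventral neural tube factor, had 2 peaks with each hairpin at 24 h, including the member at chr2:147182854-147183004, and the nearest 0 h peak was 687 kb away. Alx4, a limb and skull factor, had 1 and 2 peaks at 24 h and its member at chr2:93645975-93646125, 618 kb from a 0 h peak. Pou3f1, a neural and glial factor, had 1 with each hairpin, inside its 3.01 kb gene at chr4:124657851-124658001.

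At the other 12 homeobox genes 0 h peaks were listed within 10 kb as well. Pax3, a neural crest factor, had 2 members, at chr1:78197134-78197284 across 1 end of the gene and at chr1:78204099-78204249, the latter 82 bp from a 0 h peak. It had 3 peaks with each hairpin at 0 h and 3 and 5 at 24 h. Irx5, a patterning factor, had 2 members outside the gene at 557 and 189 bp from 0 h peaks of hairpin 133, with 2 and 3 peaks at 0 h and 3 with each hairpin at 24 h. Hmx2 and its neighbour Hmx3, inner ear factors, shared 1 member at 319 bp from a 0 h peak. Emx2, a cortical factor, had 0 and 1 peaks at 0 h and 3 and 2 at 24 h. With members left out that had a 0 h peak within 10 kb, 7 of 131 homeobox genes (5.34%) had a member, against 1.19% of all coding genes.

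Hox genes, the clustered regulators of body axis identity, had a member at 8 of 39 (20.5%, against 1.63%), but these came from only 3 members. Regions of both hairpins at 0 h only touched 7 Hox genes and regions of all 4 lists 9. The member at chr6:52226186-52226336 in Hoxa9 also counted for Hoxa7 and Hoxa10, and these are the 3 of 35 stem and progenitor regulators with a member. In the Hoxc cluster the member at chr15:103014244-103014394 in Hoxc5 counted for Hoxc4 and Hoxc6, and that at chr15:102963766-102963916, between Hoxc11 and Hoxc10, for both. Counting gene bodies alone, 2 of 39 Hox genes held a member, against 1.13% of all coding genes. Hoxc11 was the 1 gene of the 8 with no 0 h peak in its window.

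Developmental factors of the Sox, T-box, forkhead, bHLH and Gata families had members at 6 of 114 genes (5.26%). Hey1, a Notch target, Myog, a muscle factor, and Foxf2 had no 0 h peak within 10 kb, while Tbx3 (a limb and heart factor), Hand1 (a heart and placenta factor) and Neurod2 (a neuronal factor) did. PR-domain factors had 2 of 15, Prdm6 and the germ cell and pluripotency factor Prdm14, whose member at chr1:13126560-13126710 was 65 bp from a 0 h peak of hairpin 133. Among secreted ligands of the Wnt, Fgf, Bmp, Tgf and hedgehog families and their antagonists, 5 of 91 had a member (5.49%). Fgf9 and Rspo4, an activator of Wnt signalling, had none at 0 h, Tgfb3 had 1 with hairpin 133, and Gdf10 and Gdf2 shared a member. Adhesion and guidance genes had 8 of 119 (6.72%): besides Cadm1 these were Cdh26, Pcdh1, Pcdh15, Ntng1, Sema7a, Efna2 and Nrxn2. Regions of both hairpins at 0 h only touched 9 of the 119 and regions of all 4 lists 7. For the list from Sox to Gata factors those counts were 6 and 3, for PR-domain factors 1 and 1, and for ligands 2 and 3. Pcdh15, which had 25 and 15 peaks at 0 h and 14 and 13 at 24 h within 10 kb, had its member 5503 bp outside the gene.

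Lists of the erythroid programme and of the targeted pathway had 0 or 1 gene with a member each, which at their sizes is near the share of all genes. Among 30 erythroid transcription factors only Gata2, the progenitor Gata factor, had a member, at chr6:88200321-88200471 in its body. No 0 h peak lay within 10 kb of Gata2, the nearest was 384 kb from the member, and it had 1 peak with hairpin 133 and 2 with hairpin 14 at 24 h. Epb41, the gene of protein 4.1 of the red cell membrane skeleton, was 1 of 32 membrane and blood group genes, with its member at chr4:132048346-132048496. Sos1, an exchange factor for Ras, was 1 of 52 genes of erythropoietin receptor and Kit signalling (1.92%), with its member 9559 bp outside the gene. Plcd3, the gene of phospholipase C delta 3, was 1 of 79 genes of calcium, protein kinase C and phospholipase C signalling (1.27%). Its member at chr11:103101059-103101209 lay 524 bp downstream of its listed start, and no 0 h peak was listed within 10 kb. Globin and haem synthesis (27 genes), iron handling (21), megakaryocyte markers (23), DNA methylation machinery (37) and housekeeping genes (20) had 0 members, and at 1.63% fewer than 1 gene would be reached in each. Counting 50 kb on each side, 2 iron, 2 DNA methylation and 1 megakaryocyte gene had a member, beside 3.53% of all coding genes.

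The remaining lists held few members. Jarid2 and Bcorl1 were 2 of 40 Polycomb and trithorax genes, and neither had a 0 h peak within 10 kb. Tdrd5 and Tdrd9, tudor genes of the piRNA pathway that silences transposons in germ cells, were 2 of 48 germline genes, each with 1 peak per hairpin at 24 h and none at 0 h. Tdrd5 had its member at chr1:156303731-156303881 and Tdrd9 at chr12:112034694-112034844. Of neuronal channels and receptors, Gabrd (a GABA receptor subunit), Kcnq1 and Adra2b had a member. Kcnq1, a potassium channel gene in an imprinted domain, was also the 1 of 61 imprinted genes, with its member at chr7:143107256-143107406 inside the gene and the nearest 0 h peak 578 kb away. Ebf1 was 1 of 37 lymphoid markers, Prtn3 (proteinase of neutrophil granules) 1 of 32 myeloid markers and Cdk6 1 of 56 genes of cell cycle, apoptosis and the p53 pathway.

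**Figure D4:**
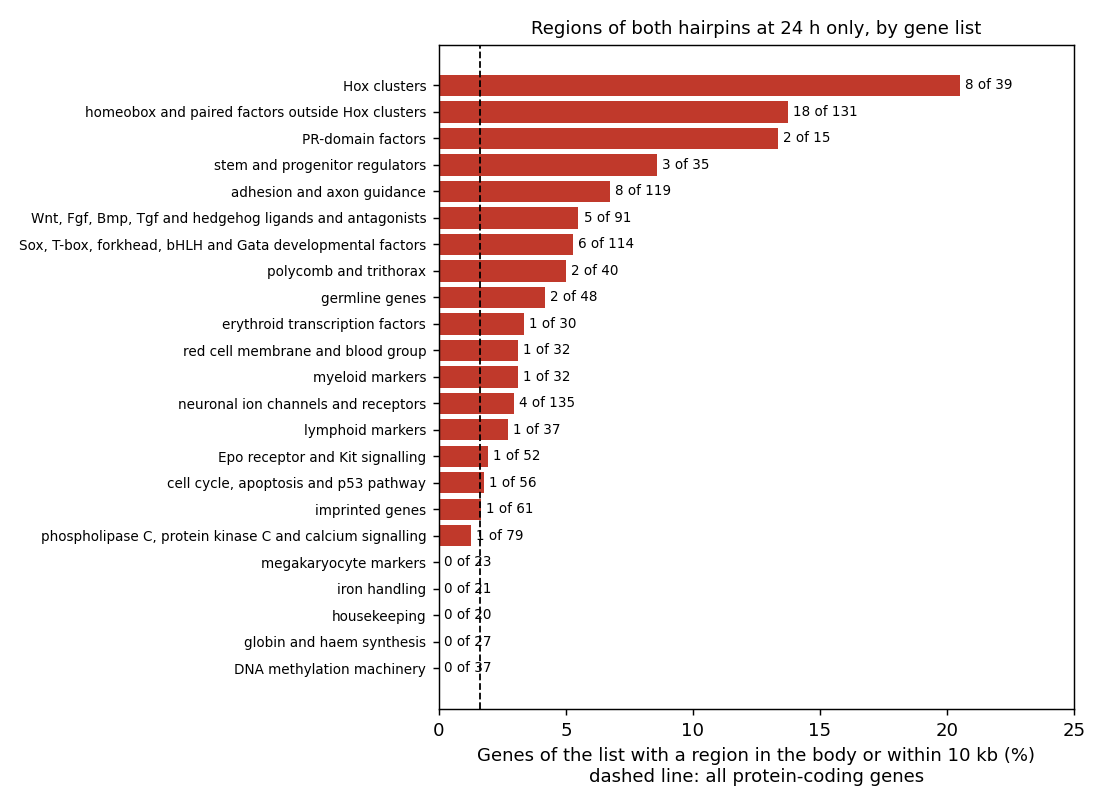
Share of each gene list (%) with a member in the body or within 10 kb, with the counts beside the bars and a dashed line at 1.63%, the share of all protein-coding genes. Hox (8 of 39) and other homeobox genes (18 of 131) have the longest bars, and 5 lists have 0.

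Chromosome 10 carried the most members, 52 of 362 (14.4%), and 47 of them lay beyond 60 Mb. Among the regions of both hairpins at 0 h only it held 93 of 809 (11.5%), and 77 of these also lay beyond 60 Mb. The difference in the share on chromosome 10 did not pass the threshold (Fisher's exact test, adjusted p = 0.598). Chromosome 2 followed with 35 members, among them those of Pax6, Lhx6, Alx4 and Nkx2-2, and chromosome 12 with 26. None of 20 chromosomes differed from the 0 h regions after adjustment (Fisher's exact test), and 1 had an unadjusted p under 0.05. That was chromosome 1, with 3.87% of members and 7.79% of the 0 h regions (Fisher's exact test, p = 0.0108, adjusted p = 0.217).

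**Figure D5:**
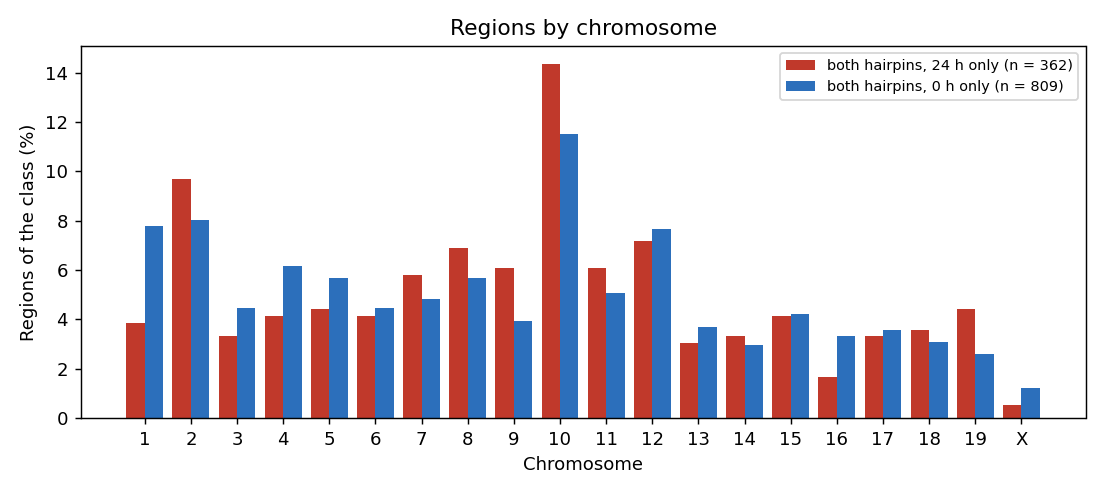
Share of regions (%) on each chromosome, for members (n = 362) and regions of both hairpins at 0 h only (n = 809). Chromosome 10 has the tallest bar in both sets, 14.4 and 11.5%, and chromosome X the lowest.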

How the data were processed

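The authors sequenced methyl-CpG immunoprecipitates of I/11 cells in 6 libraries, of which 4 carried a hairpin against Plcg1 and gave the peak lists used. The scrambled-hairpin libraries were not analysed here. Each deposited list gives the chromosome, start and end of its peaks and no score, count or strand. Per the submitters' processing notes, BWA, Picard, SAMtools and HOMER were used with the mouse build mm10. Their versions, settings, the peak threshold and any control library are not given in the sources used here, and read depth is unknown, so no precision can be given for methylation itself.

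BED starts were read as 0-based and are printed 1-based. Peaks overlapping by 1 bp or more were merged into 10085 regions. Genes came from RefSeq (GRCm38.p6, the coordinates of mm10), with 21900 protein-coding genes, and starts and sequences from a RefSeq promoter table of the same build that holds windows for 17492 of them and none used here on chromosome 18. In 1843 places where windows of opposite strands overlapped, the sequences matched as reverse complements. For shares near gene ends, in gene bodies and far from genes, and for distances to starts, regions were placed by their centre. Promoter windows and all counts of genes with members went by 1 bp of overlap with the window, or with the gene and its margin. Classes of regions were compared with Fisher's exact test (two-sided, scipy 1.17.1) and Benjamini-Hochberg adjustment over 17 tests, with a threshold of 0.05, and over 20 chromosomes separately. Intervals are exact binomial 95% intervals. Merging and tests were checked on simulated data.

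The members and gene lists were chosen with earlier results of these data known. Named genes are those holding 2 or more members in the body or within 1 kb, list genes with a member in the body or within 10 kb (at most 8 a list), the 15 named genes whose promoter window a member covers most, and coding genes with members on chromosome X. Sequences are shown for the 8 of these with most CpG, and Pax6 and Lhx6 were added after their values were seen. Nkx2-2, Otx2, Pou3f1 and Vax1 were likewise named after their values were seen, beyond the limit of 8 a list. Predicted genes were counted and not named, and 1 result on a listed gene is not reported here. No sequence of whole regions was used, so CpG content was computed for promoter windows in place of the planned regions. Alternatives were other overlap and distance limits, identical coordinates, 1 region per locus, 1 window per region and omission of chromosome 10.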

Additional observations from a re-analysis of the deposited data

How the results depend on the processing

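The number of members was 374 when peaks had to overlap by 50% of the shorter one, 343 and 317 with 0 h peaks widened by 150 bp and by 1 kb, 440 and 429 when only the 0 h list of hairpin 133 or of hairpin 14 excluded a region, 318 with identical coordinates and 352 with 1 member per locus. Of 75 recomputed differences in position, CpG content and identity, 66 kept their direction and their side of the threshold, 9 kept the direction and no longer passed (Fisher's exact test), and 0 reversed. By Fisher's exact test, the excess of members in promoter windows over the 0 h regions was 2.94 points with identical coordinates only (adjusted p = 0.181), 3.07 with 1 region per locus (0.0645), 2.79 with peaks of the other time widened by 1 kb (0.0989) and 3.06 without chromosome 10 (0.0965). Widening by 1 kb also brought the excess over regions of 1 list at 24 h from 3.49 to 2.54 points (0.0786). Against the same regions, the deficit over 10 kb from any gene went from -4.965 to -3.73 points (0.102). The excess of CpG-rich windows over the 0 h regions was 20.8 points with identical coordinates (0.123) and, in a setting added after the data had been seen, 22.4 with 1 window per region (0.0944), where that over regions of 1 list at 24 h was 20.3 (0.0553). The cause was not tested, and each of these settings had fewer regions or windows. Genes with a member numbered 773 when 50 kb on each side counted, through the wider window. No paired analysis was possible because the lists hold no count or score to pair within a hairpin, and no result here compares samples. Read depth is unknown, so a peak missing from a 0 h list does not show that the DNA was unmethylated.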

Other observations

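Members also lay in several well-known genes outside the gene lists, which were picked after their values were seen and have no test. Snai2, the gene of a factor of epithelial to mesenchymal transition, held a member at chr16:14705857-14706007, 413 kb from the nearest 0 h peak, and had 1 peak with each hairpin at 24 h. Bmf, the gene of a BH3-only apoptosis activator, held one at chr2:118549413-118549563, 103 kb from a 0 h peak. Hspa1b, a heat shock gene, held one at chr17:34958768-34958918, 71.7 kb from a 0 h peak. None of these 3 genes had a 0 h peak within 10 kb.

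In Ret (a receptor tyrosine kinase of neural crest and kidney), Itga2 (an integrin of collagen binding) and Timp2 (a metalloproteinase inhibitor) the member lay 179, 220 and 58 bp from a 0 h peak of hairpin 133. In Dmrt3, a DM-domain factor of spinal neurons, that distance was 1596 bp. All 7 members had identical coordinates in both 24 h lists.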
